A study of Mus musculus with 8 samples.

Results

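Transcripts of 10 heparan sulfate proteoglycan genes were measured in brain endothelial cells (ECs) of mice that express a constitutively active MAP2K1 and of wild-type mice. The 10 genes were taken by name from the 49315 genes counted: the syndecans *Sdc1*, *Sdc2*, *Sdc3* and *Sdc4*, the glypicans *Gpc1*, *Gpc3*, *Gpc4* and *Gpc6*, and the basement membrane proteoglycans *Hspg2* (perlecan) and *Agrn* (agrin). Each of 4 mutant and 4 wild-type pups gave 1 RNA sequencing library, prepared from cells that bound beads carrying an antibody to CD31, an endothelial surface protein. All pups had received tamoxifen on day 1 of life and were killed on day 9 (P9). Mutant pups carried R26 GT-Map2k1-GFP/+ and Tg-Cdh5CreER +/-, so that tamoxifen activated Cre in cells using the *Cdh5* promoter, and Cre then released a *Map2k1* cDNA encoding K57N, followed by GFP, from a CAG promoter in the Rosa locus. Recombination reached a minority of the ECs, so a mutant library mixes recombined and unrecombined cells. The model has no group that expresses unmutated MAP2K1 from the same locus, and the labels do not say whether the wild-type pups carried either allele alone. The strains were kept on C57BL/6J, and the wild-type pups came from the same litters as the mutant pups.

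Heparan sulfate proteoglycans are core proteins that carry long sulfated sugar chains. The chains bind growth factors, chemokines and matrix proteins and present them to receptors, so the same core protein can act differently when its chains change. Syndecans cross the cell membrane, glypicans are held to it by a lipid anchor, and perlecan and agrin are large secreted proteins of the basement membrane. In brain vessels the basement membrane lies between ECs, pericytes and astrocyte endfeet, and agrin and perlecan are both among its components.

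The libraries held 24833373 to 34196955 counts on genes. The 10 proteoglycan genes took 0.387% to 0.437% of all counts in wild-type libraries and 0.468% to 0.587% in mutant libraries, ranges that did not overlap. These shares are not corrected for gene length. *Hspg2*, the longest gene model of the set at 14307 bases, alone had 43256 to 53115 counts in wild-type and 80176 to 127532 counts in mutant libraries. *Agrn* went the other way, with 61942 to 74042 counts in wild-type and 31251 to 39371 counts in mutant libraries. The higher share of the set is therefore not a property of each gene. *Map2k1* (ENSMUSG00000004936, chromosome 9 from 64185770 to 64253631), whose count can include reads from the transgene, checked the labels. Its level in mutant libraries 1 to 4 was 186, 126, 126 and 142 RPKM (reads per kilobase of gene model, scaled to the normalized library size), and 16.3, 17.5, 15.3 and 15.0 RPKM in wild-type libraries 1 to 4, so every library matched its label. Mutant and wild-type ECs were compared over 16887 genes by the quasi-likelihood test of edgeR, and p was adjusted over all of them after Benjamini and Hochberg. A gene was called when its adjusted p was under 0.05 and its absolute log2 fold change was over 1.

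The ECs of both groups held high levels of endothelial transcripts. The summed level of 10 endothelial markers was 3076 to 3713 RPKM in mutant and 3128 to 3957 RPKM in wild-type libraries. Among them *Cdh5*, whose promoter drives CreER, was called higher, with 626 ± 101 (SD, n = 4) against 291 ± 20.6 RPKM (SD, n = 4). *Pecam1* and *Emcn* were also higher at an adjusted p under 0.05 (log2 fold change 0.53 and 0.82, edgeR). *Kdr*, *Cldn5* and *Tek* were lower at that limit (log2 fold change -0.59, -0.47 and -0.44), and the other 4 did not pass. These are 3 higher and 3 lower of 10, beside 21.5% and 22.9% of all genes tested. Markers of some other cells differed between the groups. Of all genes tested, 5.90% were called higher and 8.05% lower. All 6 oligodendrocyte lineage markers were called lower in mutant libraries, with a summed level of 4.45 to 10.4 against 17.0 to 46.9 RPKM. The 5 red blood cell genes were all called lower, with 109 to 358 against 668 to 1161 RPKM. Of 6 neuronal markers 4 were called lower, with 4.03 to 5.72 against 6.17 to 13.8 RPKM. The summed levels of the pericyte (162 to 275 against 153 to 281 RPKM), smooth muscle (45.2 to 135 against 63.4 to 141), fibroblast (131 to 168 against 109.7 to 148), astrocyte (2.96 to 8.53 against 3.73 to 7.04) and microglia or macrophage lists (16.6 to 65.6 against 19.7 to 87.4) overlapped between the groups. Within the pericyte list *Abcc9* was called higher, with 13.9 ± 4.17 (SD, n = 4) against 4.06 ± 1.22 RPKM (SD, n = 4), and *Kcnj8* was higher at an adjusted p of 0.0242 alone (log2 fold change 0.81, edgeR). The other 5 pericyte markers did not pass, with log2 fold changes from -0.44 (*Rgs5*) to 0.27 (*Anpep*). At an adjusted p under 0.05, 2 fibroblast markers were higher and 1 lower. At that limit 1 smooth muscle marker was higher, 1 astrocyte marker was lower, and 0 microglia or macrophage markers passed. None of the 56 markers was at 0 in any library. In such bulk samples, fewer cells of a type and less RNA per cell cannot be told apart.

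**Figure D1:**
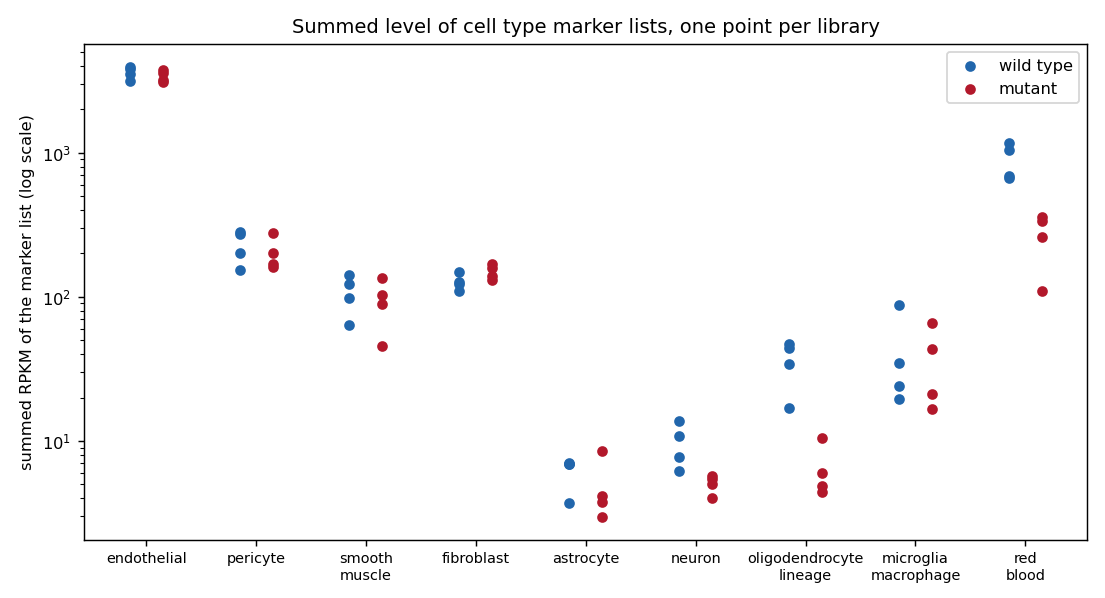
Summed RPKM of each cell type marker list on a log axis, with 1 point per library, wild type in blue and mutant in red. The endothelial sums overlap at 3076 RPKM and above, while the oligodendrocyte lineage and red blood cell sums of all mutant libraries lie below those of all wild-type libraries.

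The transcripts of perlecan and agrin traded places, while their proteins were not measured. *Hspg2* rose about 2.37-fold in mutant ECs and *Agrn* fell by 40.1%, so that the most abundant proteoglycan transcript of the set was *Agrn* in every wild-type library and *Hspg2* in every mutant library. Among the syndecans *Sdc4* rose and *Sdc1* fell, and among the glypicans *Gpc4* rose and *Gpc1* fell. *Sdc2*, *Sdc3*, *Gpc3* and *Gpc6* did not pass the test. In all, 3 of the 10 genes had an adjusted p under 0.05 and were higher, and 3 were lower, 6 of 10 genes in all, where 44.4% of all genes tested passed this limit. Only *Hspg2* also passed the limit on the fold, 1 of 10 genes where 14.0% of all genes tested were called. The share called is therefore near that of all genes. The median log2 fold change of the 10 genes was -0.10, beside -0.02 over all genes tested. Their summed level was 436 to 544 RPKM in mutant and 384 to 448 RPKM in wild-type libraries, ranges that overlapped. The groups did not overlap for 5 of the 10 genes (*Hspg2*, *Gpc4*, *Agrn*, *Gpc1* and *Sdc1*), with 2 higher and 3 lower in mutant ECs, beside 42.5% of all genes tested, 20.6% higher and 21.9% lower.

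**Figure D2:**
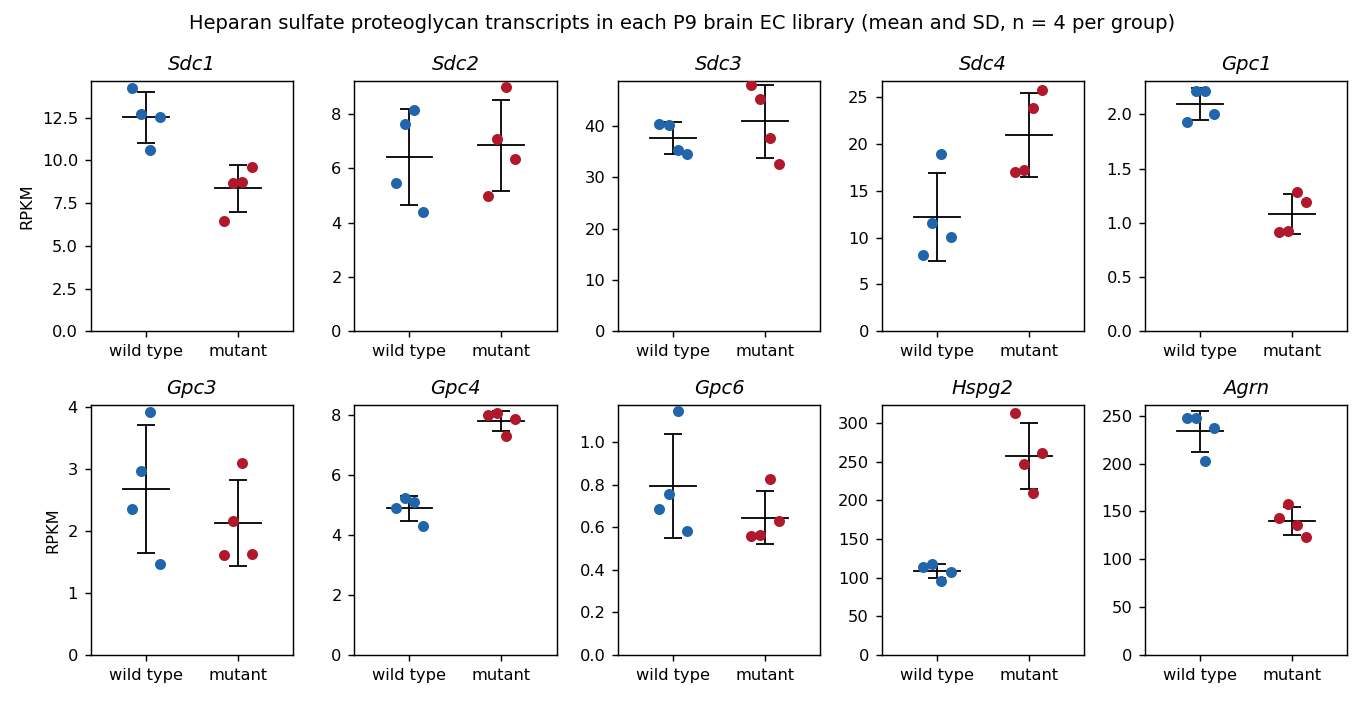
Level of each proteoglycan gene in RPKM, with 1 point per library, wild type in blue and mutant in red, and bars for the mean and SD of 4 libraries. Every axis starts at 0 and has its own scale. The groups are apart for Hspg2 and Gpc4, higher in mutant, and for Agrn, Gpc1 and Sdc1, lower in mutant.

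**Figure D3:**
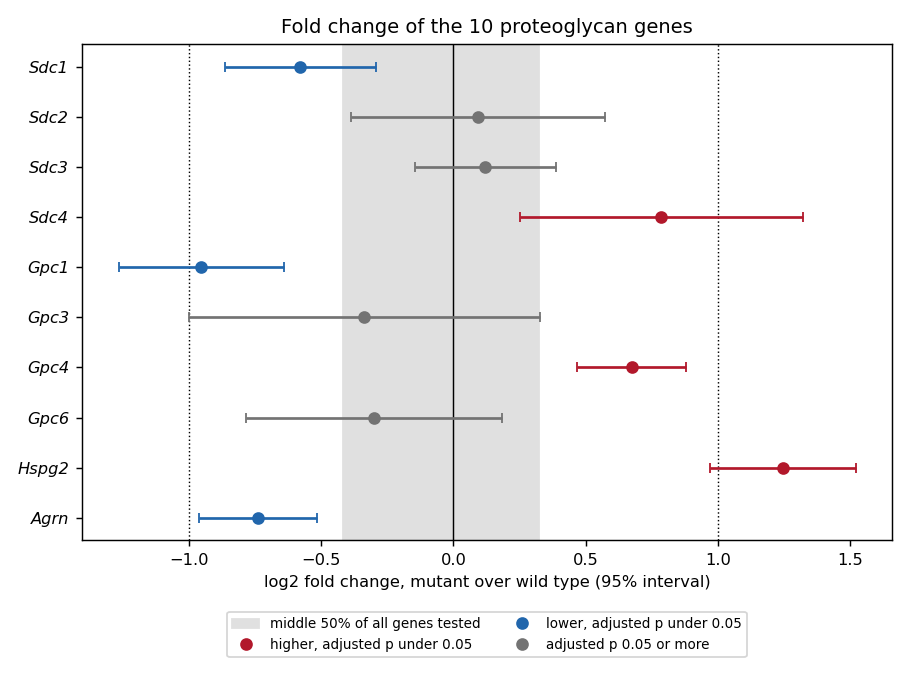
Log2 fold change of each gene, mutant over wild type, with its 95% interval from edgeR. The grey band is the middle 50% of all genes tested, from -0.42 to 0.32, and dotted lines mark a log2 fold change of 1 in either direction. Hspg2 lies past the right dotted line at 1.25, and the intervals of Sdc2, Sdc3, Gpc3 and Gpc6 cross 0.

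The 250 bases before a RefSeq start site are shown for genes that moved in opposite directions within a family, namely perlecan and agrin, and *Sdc4* and *Sdc1*. The sequences are RefSeq's for GRCm38.p6, written 5′ to 3′ on the strand of the gene. Of the 10 genes, 7 matched an entry. Some of RefSeq's starts differ from those of the counted gene models, so the *Sdc4* window lies inside the *Sdc4* gene model given below, and the *Hspg2* and *Sdc1* windows run into theirs. For *Agrn*, which has more than 1 listed start, the outermost is shown. The intervals are chr4:137468553-137468802 (plus strand) for *Hspg2*, chr4:156197489-156197738 (minus strand) for *Agrn*, chr2:164443189-164443438 (minus strand) for *Sdc4* and chr12:8771146-8771395 (plus strand) for *Sdc1*. Capitals mark the GC box letters GGGCGG, the site of Sp1 and related factors, or their reverse complement.
Hspg2: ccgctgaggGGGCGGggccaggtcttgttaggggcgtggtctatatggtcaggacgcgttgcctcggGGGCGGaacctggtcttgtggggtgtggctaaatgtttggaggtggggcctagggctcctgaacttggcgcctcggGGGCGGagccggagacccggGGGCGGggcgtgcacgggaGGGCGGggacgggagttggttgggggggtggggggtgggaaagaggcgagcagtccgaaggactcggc
Agrn: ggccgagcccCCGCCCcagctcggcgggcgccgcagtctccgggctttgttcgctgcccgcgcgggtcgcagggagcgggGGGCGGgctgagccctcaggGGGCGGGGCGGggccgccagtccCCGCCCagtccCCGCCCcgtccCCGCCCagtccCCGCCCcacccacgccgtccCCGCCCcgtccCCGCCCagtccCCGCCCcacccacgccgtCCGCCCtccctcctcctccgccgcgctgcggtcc
Sdc4: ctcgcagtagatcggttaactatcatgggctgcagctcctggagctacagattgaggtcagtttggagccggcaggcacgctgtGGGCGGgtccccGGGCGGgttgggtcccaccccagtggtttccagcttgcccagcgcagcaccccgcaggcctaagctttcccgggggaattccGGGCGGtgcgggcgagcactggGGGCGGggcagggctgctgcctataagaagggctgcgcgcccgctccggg
Sdc1: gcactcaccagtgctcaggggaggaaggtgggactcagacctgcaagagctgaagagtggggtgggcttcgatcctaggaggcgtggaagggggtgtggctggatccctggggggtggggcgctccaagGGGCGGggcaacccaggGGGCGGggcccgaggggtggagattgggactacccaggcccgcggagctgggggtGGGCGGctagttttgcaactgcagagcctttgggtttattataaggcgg
The *Hspg2* window held 5 GC boxes, the *Agrn* window 12, of which 1 pair shares a base, the *Sdc4* window 4 and the *Sdc1* window 3. A GC box was found in 32.7% of the 32851 windows of this length in the table. The bases G and C made up 70.0% of the *Hspg2* window, 83.6% of *Agrn*, 68.0% of *Sdc4* and 66.0% of *Sdc1*. The median over all windows was 52.4%, and the GC box counts were not corrected for this. The letters CCGGAAG of an ETS site, which were in 6.91% of all windows, and TGANTCA of an AP-1 site, which were in 6.75%, were searched on both strands because both factor families act below ERK. Neither was in any of the 4 windows. Most windows of the table also lacked these letters, so their absence from 4 windows is uninformative. All of these searches match letters and do not measure binding. The GC boxes were present both where the transcript rose and where it fell.

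*Hspg2* (ENSMUSG00000028763, chromosome 4 from 137468769 to 137570630) encodes perlecan, whose core protein binds laminin, nidogen and growth factors in the basement membrane. Its level in mutant libraries 1 to 4 was 313, 247, 209 and 261 RPKM, and in wild-type libraries 1 to 4 it was 113, 118, 96.1 and 107 RPKM. No mutant value reached down to the wild-type range, which ended at 118 RPKM, while the mutant range began at 209 RPKM. The means were 258 ± 43.0 (SD, n = 4) in mutant and 109 ± 9.30 RPKM (SD, n = 4) in wild-type ECs, a fitted log2 difference of 1.25 with a standard error of 0.12 (adjusted p = 4.02e-05) by the quasi-likelihood test of edgeR.

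*Agrn* (ENSMUSG00000041936, chromosome 4 from 156165290 to 156197488) encodes agrin, which binds laminin and dystroglycan and organizes the endfeet of astrocytes around brain vessels. It had 144, 158, 136 and 123 RPKM in mutant libraries 1 to 4 and 247, 247, 203 and 237 RPKM in wild-type libraries 1 to 4. Every mutant library was below every wild-type library. The means were 140.0 ± 14.7 (SD, n = 4) and 234 ± 21.2 RPKM (SD, n = 4), a fitted log2 difference of -0.74 with a standard error of 0.10 (adjusted p = 2.54e-04) in the same edgeR test, which is 1.67-fold lower.

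The ratio of *Hspg2* to *Agrn* within a library does not depend on how libraries are scaled to each other. On the RPKM scale it was 0.453 to 0.475 in wild-type and 1.54 to 2.18 in mutant libraries. The wild-type libraries were close together, with 0.465 ± 0.0114 (SD, n = 4), and the mutant libraries spread more widely, with 1.85 ± 0.348 (SD, n = 4). *Hspg2* made up 31.7% ± 0.531 (SD, n = 4) of the sum of both transcripts in wild-type and 64.6% ± 4.32 (SD, n = 4) in mutant libraries. The summed level of both was 299 to 365 RPKM in wild-type and 345 to 457 RPKM in mutant libraries, ranges that overlapped.

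**Figure D4:**
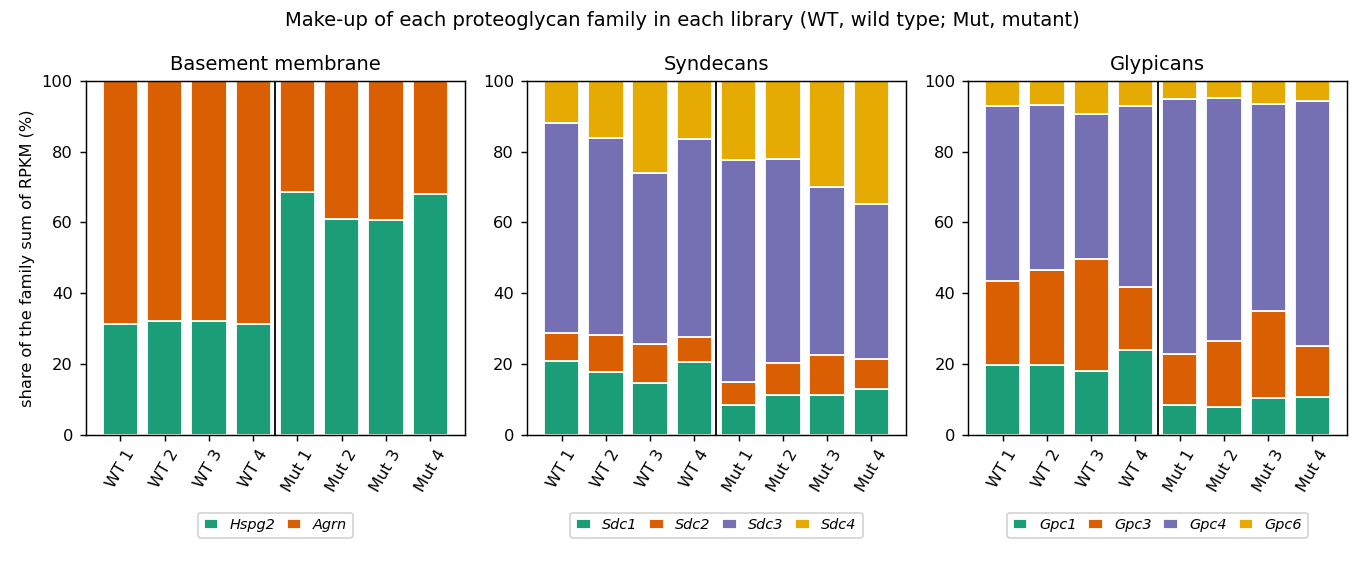
Share of each gene in the summed RPKM of its family, as stacked bars for each library, with wild-type libraries left and mutant libraries right of the black line. Hspg2 makes up 31.7% of the basement membrane pair on average in wild-type and 64.6% in mutant libraries, Sdc3 is the largest part of the syndecans in all 8 libraries, and the share of Gpc4 in the glypicans is larger in all mutant libraries.

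Syndecans carry their chains on an ectodomain that proteases can shed, and act as co-receptors for integrins and growth factor receptors. *Sdc4* (ENSMUSG00000017009, chromosome 2 from 164424247 to 164443887), a component of focal adhesions, had 17.0, 17.2, 23.8 and 25.8 RPKM in mutant libraries 1 to 4 and 8.18, 11.5, 18.9 and 10.03 RPKM in wild-type libraries 1 to 4. Wild-type replicate 3 lay above mutant replicates 1 and 2, so the groups overlapped. The means were 21.0 ± 4.52 (SD, n = 4) and 12.2 ± 4.70 RPKM (SD, n = 4), a fitted log2 difference of 0.79 with a standard error of 0.24 (adjusted p = 0.0226) by the quasi-likelihood test of edgeR. Like *Sdc4*, all 6 microglia or macrophage markers were highest among wild-type libraries in replicate 3. Among mutant libraries these markers were highest in replicate 3 and *Sdc4* in replicate 4. The part of such cells in the level of *Sdc4* was not tested. Whether *Sdc4* passed the adjusted p depended on single libraries. With mutant replicate 3 or 4 or wild-type replicate 1, 2 or 4 left out, the adjusted p was 0.0551, 0.0588, 0.0573, 0.0560 and 0.0601, and without wild-type replicate 3 the log2 fold change was 1.08, past the limit on the fold.

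*Sdc1* (ENSMUSG00000020592, chromosome 12 from 8771323 to 8793715), best known as an epithelial and plasma cell syndecan and also part of the endothelial glycocalyx, had 6.43, 8.69, 8.76 and 9.63 RPKM in mutant libraries 1 to 4. In wild-type libraries 1 to 4 it had 14.3, 12.7, 10.6 and 12.6 RPKM. All mutant libraries were below all wild-type libraries. The means were 8.38 ± 1.37 (SD, n = 4) and 12.5 ± 1.50 RPKM (SD, n = 4), a fitted log2 difference of -0.58 with a standard error of 0.13 (adjusted p = 0.00446) in the same edgeR test. The ratio of *Sdc4* to *Sdc1* on the RPKM scale was 1.98 to 2.72 in mutant and 0.573 to 1.78 in wild-type libraries.

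*Sdc3* (ENSMUSG00000025743, chromosome 4 from 130792537 to 130826319), a syndecan abundant in the nervous system, was the main syndecan transcript of these libraries. It had 48.0, 45.4, 37.6 and 32.7 RPKM in mutant libraries 1 to 4 and 40.5, 40.2, 35.3 and 34.5 RPKM in wild-type libraries 1 to 4. The mutant values spanned the wild-type range. Its log2 fold change was 0.12, with a 95% interval of -0.15 to 0.39 and an adjusted p of 0.443 (quasi-likelihood test of edgeR). *Sdc3* shares exonic bases with *Gm12970* and *Gm26716* on the other strand, which had at most 16 counts in any library. *Sdc2* (ENSMUSG00000022261, chromosome 15 from 32920723 to 33034730), a syndecan of ECs and mesenchymal cells, had 4.98, 7.10, 8.99 and 6.34 RPKM in mutant libraries 1 to 4 and 5.46, 7.63, 8.16 and 4.41 RPKM in wild-type libraries 1 to 4. The groups overlapped over most of their range, and the log2 fold change was 0.09 (95% interval -0.39 to 0.57, adjusted p = 0.748, edgeR).

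The summed level of the 4 syndecans was 74.4 to 79.2 RPKM in mutant and 61.5 to 73.0 RPKM in wild-type libraries. On this scaling every mutant sum was above every wild-type sum. The gap was narrow and depends on how libraries are scaled to each other, and the sum was not recomputed under the other scalings. *Sdc3* made up 54.9% ± 4.58 (SD, n = 4) of that sum in wild-type and 53.0% ± 8.83 (SD, n = 4) in mutant libraries. The share of *Sdc4* was 17.5% ± 5.91 (SD, n = 4) in wild-type and 27.2% ± 6.22 (SD, n = 4) in mutant libraries, and that of *Sdc1* was 18.4% ± 2.93 (SD, n = 4) and 10.9% ± 1.87 (SD, n = 4).

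Glypicans carry their chains close to the membrane and modulate Wnt, Hedgehog, BMP and FGF signals. *Gpc4* (ENSMUSG00000031119, chromosome X from 52053021 to 52165252), known in brain as an astrocyte signal for synapse formation, was the main glypican transcript. It had 7.98, 8.04, 7.28 and 7.85 RPKM in mutant libraries 1 to 4 and 4.90, 5.23, 5.09 and 4.28 RPKM in wild-type libraries 1 to 4. The mutant values all exceeded the wild-type ones, and their spread was the narrowest of the 10 genes, with an SD of 4.46% of the mean. The means were 7.79 ± 0.347 (SD, n = 4) and 4.87 ± 0.422 RPKM (SD, n = 4), a fitted log2 difference of 0.68 with a standard error of 0.09 (adjusted p = 2.68e-04) by the quasi-likelihood test of edgeR. *Gpc4* lies on the X chromosome, and *Xist*, which the inactive X chromosome expresses, had 28100 to 33829 counts in mutant replicate 4 and wild-type replicates 2 and 3 and 149 to 212 in the other libraries. *Gpc4* was 7.85 RPKM in that mutant library, within the range of the other mutant libraries, while wild-type libraries 2 and 3 had the highest wild-type levels of *Gpc4* and also of *Gpc3*, its neighbour on the X chromosome. The part of X chromosome dosage was not tested.

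*Gpc1* (ENSMUSG00000034220, chromosome 1 from 92831645 to 92860779), a glypican of neurons and of the endothelial glycocalyx, had 0.918, 0.924, 1.28 and 1.19 RPKM in mutant libraries 1 to 4 and 1.93, 2.22, 2.22 and 2.00 RPKM in wild-type libraries 1 to 4. All mutant libraries were below all wild-type libraries. The means were 1.08 ± 0.186 (SD, n = 4) and 2.09 ± 0.147 RPKM (SD, n = 4), a fitted log2 difference of -0.95 with a standard error of 0.14 (adjusted p = 4.19e-04) in the same edgeR test. It lay just inside the limit on the fold and passed it without mutant replicate 3, where the log2 fold change was -1.04. Of the 6 neuronal markers 4 were called lower, as given above, while *Rbfox3* had a log2 fold change of 1.19 (adjusted p = 0.0514, edgeR), and their part in the fall of *Gpc1* was not tested. *Gpc1* shares exonic bases with *Ankmy1* on the other strand, which had at most 3 counts in any library.

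*Gpc3* (ENSMUSG00000055653, chromosome X from 52272426 to 52613950), the glypican whose loss causes overgrowth, lies 107173 bases from *Gpc4* on the same strand. It had 1.62, 2.16, 3.10 and 1.64 RPKM in mutant libraries 1 to 4 and 2.35, 2.98, 3.92 and 1.47 RPKM in wild-type libraries 1 to 4, with the highest value of each group in replicate 3. The log2 fold change was -0.34 (95% interval -1.0004 to 0.33, adjusted p = 0.388, quasi-likelihood test of edgeR). *Gpc6* (ENSMUSG00000058571, chromosome 14 from 116925297 to 117979529), like *Gpc4* an astrocyte glypican, was the lowest of the set. It had 0.561, 0.565, 0.828 and 0.628 RPKM in mutant libraries 1 to 4 and 0.688, 0.759, 1.15 and 0.584 RPKM in wild-type libraries 1 to 4, again highest in replicate 3 of each group. Its log2 fold change was -0.30 (95% interval -0.78 to 0.18, adjusted p = 0.289, edgeR).

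*Gpc4* made up 47.2% ± 4.48 (SD, n = 4) of the summed RPKM of these 4 glypicans in wild-type and 67.1% ± 6.05 (SD, n = 4) in mutant libraries, and *Gpc1* made up 20.3% ± 2.62 (SD, n = 4) and 9.25% ± 1.35 (SD, n = 4). The ratio of *Gpc4* to *Gpc1* on the RPKM scale was 5.68 to 8.70 in mutant and 2.13 to 2.54 in wild-type libraries. Both other glypicans were low. *Gpc2*, a neuronal glypican, had 0.808 ± 0.0793 (SD, n = 4) and 0.872 ± 0.0812 RPKM (SD, n = 4), with a log2 fold change of -0.11 (adjusted p = 0.571, edgeR). *Gpc5* had 5, 1, 3 and 6 counts in mutant and 15, 13, 19 and 17 counts in wild-type libraries 1 to 4, and was called lower (log2 fold change -1.88, adjusted p = 0.00491, edgeR).

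In wild-type ECs the order of the levels in RPKM was *Agrn*, *Hspg2*, *Sdc3*, *Sdc1*, *Sdc4*, *Sdc2*, *Gpc4*, *Gpc3*, *Gpc1* and *Gpc6*. The ranges of *Sdc1* and *Sdc4*, of *Sdc2* and *Gpc4*, and of *Gpc3* and *Gpc1* overlapped, and those of the other neighbours did not. In mutant ECs the order was *Hspg2*, *Agrn*, *Sdc3*, *Sdc4*, *Sdc1*, *Gpc4*, *Sdc2*, *Gpc3*, *Gpc1* and *Gpc6*, where only *Sdc1*, *Gpc4* and *Sdc2* overlapped with a neighbour. *Agrn* was at the 99.1 percentile of the levels of all genes tested in wild-type and the 98.2 percentile in mutant ECs, and *Hspg2* at the 97.8 and the 99.2 percentile. *Gpc1* moved from the 41.4 to the 30.7 percentile.

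The sample labels carry 3 prefixes whose meaning is not stated, one shared by replicates 1 and 2 of both groups, one by replicate 3 and one by replicate 4. Within these prefixes, in that order, the log2 ratio of mutant to wild-type RPKM was 1.28, 1.12 and 1.28 for *Hspg2* and -0.71, -0.58 and -0.95 for *Agrn*. It was 0.80, 0.33 and 1.36 for *Sdc4* and -0.84, -0.27 and -0.38 for *Sdc1*. It was 0.66, 0.52 and 0.88 for *Gpc4* and -1.17, -0.79 and -0.75 for *Gpc1*. All 6 genes that passed the test kept their direction within each prefix, although the prefixes of replicates 3 and 4 hold 1 library per group and give no test. *Sdc2* (-0.12, 0.14 and 0.52), *Sdc3* (0.21, 0.09 and -0.08), *Gpc3* (-0.50, -0.34 and 0.16) and *Gpc6* (-0.36, -0.47 and 0.11) each had both signs.

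The enzymes that build and edit the chains were described from lists of 36 genes, of which 27 were tested. Of these, 6 had an adjusted p under 0.05 and were higher, and 6 were lower, together 44.4%, the same share as over all genes tested. Past both limits, 4 were higher and 0 were lower, where 5.90% of all genes tested were called higher and 8.05% lower. The 4 genes belong to separate steps of chain assembly, and in each of these steps at least 1 other gene was lower at an adjusted p under 0.05. The median log2 fold change over the 27 genes was -0.08.

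*Xylt1* (chromosome 7 from 117380979 to 117673580), 1 of a pair of xylosyltransferases that attach the first sugar to the core protein, had 5.53, 3.10, 2.495 and 4.00 RPKM in mutant libraries 1 to 4. In wild-type libraries 1 to 4 it had 0.617, 0.673, 1.03 and 0.747 RPKM, so the groups were apart (log2 fold change 2.30, adjusted p = 6.81e-05, edgeR). The other xylosyltransferase, *Xylt2*, was lower in mutant ECs, with 5.62 ± 0.698 (SD, n = 4) against 10.01 ± 1.12 RPKM (SD, n = 4) (log2 fold change -0.83, adjusted p = 2.42e-04, edgeR). Their ratio, *Xylt1* over *Xylt2* on the RPKM scale, was 0.426 to 0.995 in mutant and 0.0544 to 0.119 in wild-type libraries. The other 5 genes of the linker step did not pass the test.

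*Ext1* (chromosome 15 from 53064038 to 53346159), which forms the chain polymerase together with *Ext2*, had 14.3, 13.1, 11.6 and 14.7 RPKM in mutant and 6.11, 5.95, 6.05 and 7.06 RPKM in wild-type libraries 1 to 4 (log2 fold change 1.09, adjusted p = 1.52e-05, edgeR). The mutant values all exceeded the wild-type ones. *Ext2* had 17.5 ± 1.67 (SD, n = 4) and 18.9 ± 2.45 RPKM (SD, n = 4), with a log2 fold change of -0.10 (adjusted p = 0.437, edgeR). *Extl3*, which starts the chain, fell to 21.8 ± 2.63 from 34.6 ± 3.20 RPKM (SD, n = 4 each, log2 fold change -0.66, adjusted p = 4.69e-04, edgeR), and *Extl2* also fell (log2 fold change -0.70, adjusted p = 0.0100, edgeR).

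*Hs3st3b1* (chromosome 11 from 63885792 to 63922290), a sulfotransferase that adds the rare 3-O-sulfate, rose from a low level. It had 1.53, 1.40, 1.37 and 1.68 RPKM in mutant and 0.227, 0.187, 0.160 and 0.210 RPKM in wild-type libraries 1 to 4, with 27 to 281 counts per library (log2 fold change 2.93, adjusted p = 1.62e-06, edgeR). The groups were apart, by 7.60-fold in the fitted means. *Hs3st1*, which makes the antithrombin-binding site and was the more abundant 3-O-sulfotransferase, had 12.2 ± 2.21 (SD, n = 4) and 12.3 ± 0.984 RPKM (SD, n = 4), with a log2 fold change of -0.01 and a 95% interval of -0.30 to 0.27. Among the other genes of this step *Ndst1*, the main N-deacetylase and N-sulfotransferase, rose (log2 fold change 0.37, adjusted p = 0.00833, edgeR) and the epimerase *Glce* fell (log2 fold change -0.43, adjusted p = 0.00500, edgeR). The 2-O- and 6-O-sulfotransferases *Hs2st1*, *Hs6st1* and *Hs6st2* had log2 fold changes of -0.08, -0.12 and -0.63 and did not pass.

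*Papss2* (chromosome 19 from 32620005 to 32667187), 1 of a pair of synthases of the sulfate donor, had 4.80, 4.79, 3.41 and 3.61 RPKM in mutant and 1.93, 2.24, 1.73 and 2.18 RPKM in wild-type libraries 1 to 4 (log2 fold change 1.04, adjusted p = 3.33e-04, edgeR). Its more abundant partner *Papss1* was lower, with 19.3 ± 0.978 against 23.4 ± 1.50 RPKM (SD, n = 4 each, log2 fold change -0.28, adjusted p = 0.00898, edgeR). The log2 fold change of *Papss2* was at the limit as well, and ran from 0.96 to 1.13 over the alternatives. *Slc35b3*, a transporter of the donor into the Golgi, rose (log2 fold change 0.76, adjusted p = 2.73e-04, edgeR). The other transporter of the list, *Slc35b2*, did not pass (log2 fold change -0.11, adjusted p = 0.530, edgeR). Outside the cell, the 6-O-sulfatase *Sulf1* fell (log2 fold change -0.54, adjusted p = 0.00452, edgeR), while *Sulf2* had a log2 fold change of 0.56 (adjusted p = 0.0568, edgeR).

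Among 7 lysosomal enzymes that take the chains apart, 4 fell at an adjusted p under 0.05 and did not pass the limit on the fold, beside 22.9% of all genes tested that were lower at this adjusted p. These were *Ids*, with a log2 fold change of -0.53, *Idua* (-0.76), *Sgsh* (-0.50) and *Naglu* (-0.40).

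**Figure D5:**
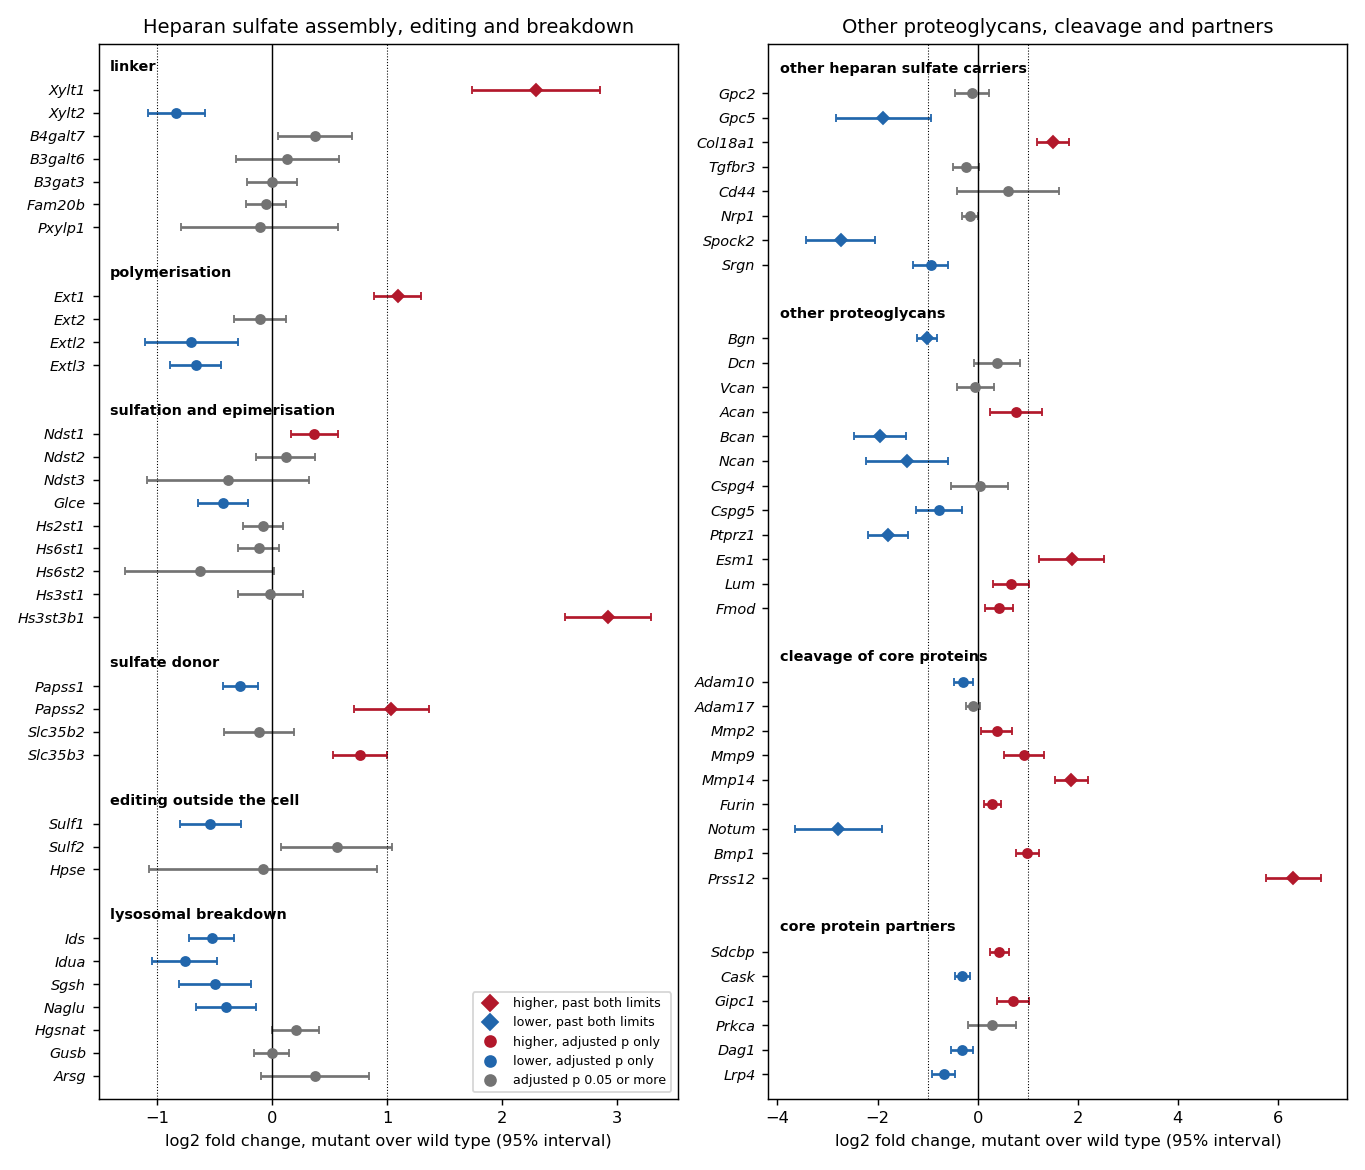
Log2 fold change of the tested genes of the heparan sulfate pathway, left, and of other proteoglycans, proteases and partners, right, with 95% intervals from edgeR. Diamonds passed both limits and circles did not, red is higher and blue lower in mutant at an adjusted p under 0.05, and grey did not pass. Xylt1, Ext1, Hs3st3b1 and Papss2 are the only diamonds on the left, all higher, and Prss12 lies farthest right at 6.31.

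Among 10 other genes whose products can carry heparan sulfate, 8 were tested, and 1 was called higher and 2 lower. Of all genes tested, 5.90% were called higher and 8.05% lower. *Col18a1* (chromosome 10 from 77052178 to 77166548), the collagen XVIII of vascular basement membranes, had 328, 241, 206 and 294 RPKM in mutant and 101, 97.0, 81.2 and 99.4 RPKM in wild-type libraries 1 to 4 (log2 fold change 1.50, adjusted p = 3.24e-05, edgeR). The groups were apart, and its mutant and wild-type means were close to those of *Hspg2*. *Spock2* (chromosome 10 from 60106219 to 60135198), testican-2, had 109, 277, 285 and 124 RPKM in mutant and 1414, 1444, 1106 and 1322 RPKM in wild-type libraries 1 to 4 (log2 fold change -2.73, adjusted p = 8.83e-05, edgeR), and in wild-type ECs its level was above that of *Agrn*. Serglycin, *Srgn*, fell, though short of the limit on the fold (log2 fold change -0.94, adjusted p = 8.90e-04, edgeR). *Gpc5* was the other gene called lower. The co-receptor *Nrp1* had a log2 fold change of -0.16 (adjusted p = 0.0947, edgeR).

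Of 12 proteoglycans that carry other chains, 4 were higher and 5 lower at an adjusted p under 0.05, beside 21.5% and 22.9% of all genes tested. Past both limits 1 was higher and 4 were lower, beside 5.90% and 8.05%. *Esm1*, the EC proteoglycan endocan, rose from 8.85 ± 2.12 to 32.5 ± 13.9 RPKM (SD, n = 4 each, log2 fold change 1.88, adjusted p = 5.53e-04, edgeR). *Bgn*, biglycan, fell from 59.2 ± 3.21 to 29.5 ± 3.41 RPKM (SD, n = 4 each, log2 fold change -1.01, adjusted p = 2.40e-05, edgeR). Its log2 fold change was at the limit, and ran from -1.07 to -0.92 over the alternatives. The neural proteoglycans *Bcan* (log2 fold change -1.96, adjusted p = 1.20e-04), *Ncan* (log2 fold change -1.40, adjusted p = 0.0109) and *Ptprz1* (log2 fold change -1.79, adjusted p = 4.28e-05) were called lower by edgeR, from wild-type means of 3.18, 1.09 and 1.20 RPKM. For *Ncan* the groups overlapped. The oligodendrocyte lineage markers moved with them, as given above, and their part in these falls and in that of *Gpc5* was not tested.

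Proteases and other enzymes that cut core proteins included the largest change among the lists examined. *Prss12* (chromosome 3 from 123446913 to 123506597), neurotrypsin, which is known to cleave agrin, had 18.0, 12.9, 10.3 and 14.2 RPKM in mutant and 0.131, 0.219, 0.224 and 0.109 RPKM in wild-type libraries 1 to 4. It rose from 8 to 20 counts per wild-type library to 720 to 1262 counts per mutant library (log2 fold change 6.31, adjusted p = 2.01e-07, edgeR). *Mmp14* (chromosome 14 from 54431612 to 54441265), a membrane metalloproteinase that can shed syndecan-1, had 90.4, 58.8, 53.9 and 62.2 RPKM in mutant and 18.3, 18.5, 18.1 and 17.4 RPKM in wild-type libraries 1 to 4 (log2 fold change 1.88, adjusted p = 9.57e-06, edgeR). *Bmp1*, which releases a fragment of perlecan, rose just short of the limit on the fold (log2 fold change 0.99, adjusted p = 4.87e-05, edgeR), and so did *Mmp9* (log2 fold change 0.93, adjusted p = 0.00185, edgeR). The syndecan sheddase *Adam17* had a log2 fold change of -0.09 (adjusted p = 0.279, edgeR). *Adam10*, of the same list and more abundant, was lower (log2 fold change -0.28, adjusted p = 0.0202, edgeR). *Notum* (chromosome 11 from 120653788 to 120661175), a secreted esterase that inactivates Wnt proteins and was first linked to glypicans, fell from 53.8, 52.9, 39.8 and 48.6 RPKM in wild-type to 3.28, 8.42, 13.1 and 3.45 RPKM in mutant libraries 1 to 4 (log2 fold change -2.79, adjusted p = 2.99e-04, edgeR). Of the 9 genes tested in this list, 6 were higher and 2 lower at an adjusted p under 0.05, beside 21.5% and 22.9% of all genes tested.

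None of the 6 tested partners of the core proteins passed both limits, where 14.0% of all genes tested did. At an adjusted p under 0.05 alone, 2 were higher and 3 lower, beside 21.5% and 22.9% of all genes tested. Syntenin, *Sdcbp*, which binds the tails of syndecans, rose (log2 fold change 0.43, adjusted p = 0.00254, edgeR), as did *Gipc1* (log2 fold change 0.71, adjusted p = 0.00259, edgeR). *Dag1*, the dystroglycan that binds agrin and perlecan, fell (log2 fold change -0.31, adjusted p = 0.0278, edgeR), and so did *Lrp4*, the agrin receptor of the neuromuscular junction (log2 fold change -0.68, adjusted p = 5.44e-04, edgeR), and *Cask* (log2 fold change -0.31, adjusted p = 0.00421, edgeR).

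Of 14 secreted ligands that bind heparan sulfate, 2 were called higher and 2 lower, beside 5.90% and 8.05% of all genes tested. At an adjusted p under 0.05 alone, 3 were higher and 3 lower, beside 21.5% and 22.9% of all genes tested. *Pgf*, placental growth factor, rose from 4.62 ± 1.66 to 32.4 ± 11.2 RPKM (SD, n = 4 each, log2 fold change 2.82, adjusted p = 4.81e-05, edgeR) and *Thbs1*, thrombospondin-1, from 7.05 ± 2.39 to 34.4 ± 6.40 RPKM (SD, n = 4 each, log2 fold change 2.29, adjusted p = 3.62e-05, edgeR). The chemokine *Cxcl12* fell from 73.3 ± 13.8 to 11.8 ± 6.31 RPKM (SD, n = 4 each, log2 fold change -2.64, adjusted p = 2.52e-04, edgeR), and *Ptn*, pleiotrophin, from 76.0 ± 5.21 to 23.0 ± 9.61 RPKM (SD, n = 4 each, log2 fold change -1.72, adjusted p = 2.95e-04, edgeR). *Vegfa* rose, though short of the limit on the fold (log2 fold change 0.74, adjusted p = 5.49e-04, edgeR), and *Fgf2*, *Pdgfb* and *Hbegf* had log2 fold changes of -0.05, 0.09 and -0.17 and did not pass the test.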

How the data were processed

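The deposited values are raw counts per gene, which the authors made by trimming (Trimmomatic) and mapping to GRCm38 (STAR), with the length of each gene model in bases. The counting program, annotation, strand setting and treatment of multi-mapping reads are not given in the sources used here. A second deposited table holds the same counts divided by 1 factor per library and was not used. Of 49315 identifiers, 48970 matched a symbol. The test was edgeR's quasi-likelihood test (edgeR 4.0.16 under R 4.3.3, TMM, filterByExpr with a minimum count of 10, glmQLFit and glmQLFTest, no covariate), in which p-values measure the spread between pups. The limits on adjusted p (0.05) and log2 fold change (1) were those of the study. RPKM values were computed from TMM-scaled library sizes and the deposited gene lengths, so levels compared between genes depend on the gene models. Ranges over 4 libraries include counting error, which at 102 or more counts per library for each of the 10 genes is small beside the spread between pups for the abundant ones. Libraries of a group differed by more than sampling noise (chi-square per degree of freedom 7.30 to 41.6), so each counted as 1 replicate. The scripts were tested on simulated data. Members, lists and the naming rule (all members, *Gpc2*, *Gpc5*, *Map2k1* and every list gene past both limits) were chosen with earlier results of these data known, and other list genes were named after their values were seen. Alternatives were DESeq2 1.42.0, other scalings and filters, blocks for the replicate number or label prefix, and each library left out. Part of the lysosomal list is not reported here.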

Additional observations from a re-analysis of the deposited data

Results flagged for a closer look

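In each group of 4 libraries, the highest and lowest values of the 10 proteoglycan genes and of the other genes named by rule were compared with the rest of the group by Dixon's ratio. Of 62 groups, 3 held a value that stood apart, and chance alone marks about 1 in 20 groups. *Ncan* was 0.794 RPKM in mutant replicate 3, above the other mutant libraries at 0.277 to 0.300. *Ext1* was 7.06 RPKM in wild-type replicate 4, above the other wild-type libraries at 5.95 to 6.11, and still below every mutant library. *Cxcl12* was 52.7 RPKM in wild-type replicate 3, below the other wild-type libraries at 78.5 to 81.9, and still above every mutant library. None of the 10 proteoglycan genes had such a value.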

How the results depend on the processing

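Of 835 values recomputed under the alternatives, 822 were marked unchanged. For a fold change this meant the same direction and the same side of the adjusted p limit, whatever its side of the limit on the fold. Counts and levels had to stay within a set margin. The median over all genes tested was always marked unchanged, so those values could not fail. With library totals only, with upper quartile scaling and without mutant replicate 3, the number of proteoglycan genes called lower went from 0 to 1, because *Gpc1* passed the limit on the fold, and leaving out each library in turn gave 0 to 1. The number called higher was 1 to 2 with each library left out, the larger without wild-type replicate 3, where *Sdc4* passed. The log2 fold change of *Sdc4* was 0.65 to 1.08 and that of *Sdc2* -0.057 to 0.242 with each library left out. *Sdc2* turned negative without mutant replicate 3 (log2 fold change -0.057) and without wild-type replicate 4 (-0.050). Cell markers called higher were 2 to 5, with 5 without wild-type replicate 3. The cause of these changes was not tested. Across all alternatives *Hspg2* stayed at 1.16 to 1.34, *Agrn* at -0.80 to -0.66, *Gpc4* at 0.61 to 0.71, *Gpc1* at -1.04 to -0.86 and *Sdc1* at -0.65 to -0.45, all past adjusted p. Restricting the test to genes whose mean reached 100 normalized counts gave 1194 called genes in all, against 2356, since fewer genes were tested, and this filter gave no value for *Gpc5*. With the replicate number as a block, *Hspg2* had a log2 fold change of 1.24 and *Agrn* of -0.74, and 3 members were higher and 3 lower at an adjusted p under 0.05, as without the block. Blocking on the label prefix changed no call among the 10 genes either. The labels give replicates 3 and 4 of both groups a shared prefix each, and replicates 1 and 2 one prefix together, without saying what it marks, so the numbers were not taken as pairs. Same-numbered libraries deviated together with correlations of 0.26, 0.24, 0.32 and 0.06 over all genes tested, and mutant replicates 2 and 4 and wild-type replicates 1, 3 and 4 correlated best with another number. Among the glypicans the depth was lowest for *Gpc5*, with 1 to 19 counts per library.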
